A study of Sus scrofa with 6 samples.

Results

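RSPO3, WIF1 and LEF1 are a trio of WNT modulators whose RNA levels were followed here in cultured bone marrow cells of the pig. The 3 genes were taken by name, each through the probe set whose only platform symbol is that name, and each had exactly 1 such probe set among the 27558 on the array (RSPO3, probe set 15192709, Entrez gene 100155208; WIF1, 15292986, 100511326; LEF1, 15321547, 100170126). They are 3 of 11078 genes that the platform annotation names. They were selected on these same log2 levels by array and site, from earlier results of these data, so their levels and site differences are a description and carry no test.

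WNT proteins are secreted signals that bind Frizzled and LRP receptors, and in the canonical branch the signal lets β-catenin build up and enter the nucleus. RSPO3, an R-spondin, acts outside the cell: it binds LGR receptors and draws away the ubiquitin ligases ZNRF3 and RNF43, which would otherwise remove Frizzled from the surface. WIF1 also acts outside the cell, where it binds WNT proteins and keeps them from their receptors. LEF1 is a DNA-binding factor of the TCF/LEF family that works with β-catenin at target genes. In bone, canonical WNT signalling is known to favour osteoblasts, the cells that lay down matrix.

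The samples were mesenchymal stem cells, which are stromal cells that marrow yields when plated, from female American Yorkshire pigs 4 months old. Of 6 arrays, 3 held cultures of mandibular marrow, drawn at the symphysis where the jaw's left and right bodies meet, and 3 held cultures of tibial marrow. All were primary cultures at passage 0, grown from whole marrow plated in flasks, with no treatment and no sorting step named in the labels. Of 11 stromal markers listed, 9 were measured, none of them below the lower quartile on all arrays, and their mean lay between 9.43 and 10.29. The design text gives 3 pigs as donors for both sites, but the sample numbers are not said to mark pigs. The sites were thus compared as unpaired, which leaves out any pairing by pig. The p-values set a site difference against the spread among cultures of the same site. Values are log2 levels after RMA, which sets the arrays on a common scale, so they are relative levels without a measure of detection.

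Some arrays stood apart from their labels. HOXA7, a trunk and limb patterning gene, measured 5.26 and 5.23 on mandibular 1 and 3 and 8.01 and 7.92 on tibial 1 and 2, but 8.40 on the array labelled mandibular 2 and 5.89 on that labelled tibial 3. LHX8, which is active in the embryonic jaw, stood at 8.26 and 8.25 on mandibular 1 and 3 and 4.77 and 4.10 on tibial 1 and 2, but 3.70 on mandibular 2 and 8.67 on tibial 3. Labels were kept as given, and stated differences that moved by over 1.5 times without those 2 arrays are also given without them. Over all 27558 probe sets, limma with Benjamini-Hochberg adjustment called 0 between the sites (836 at an unadjusted p under 0.05). Without mandibular 2 and tibial 3 it called 195.

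RSPO3 was either low or high, with nothing between. Its level was 4.08, 8.14 and 4.45 on mandibular 1, 2 and 3, and 7.79, 8.02 and 4.03 on tibial 1, 2 and 3. Mandibular 2, tibial 1 and tibial 2 were thus high and the other 3 arrays were low, so the sites overlapped fully. The high values lay within 0.35 log2 units of each other, the low values lay within 0.42, and a gap of 3.34 parted them. From the lowest to the highest array the level spanned 4.11 log2 units. The low values lay above the lower quartiles of the arrays, 3.86 to 3.94, with 26.8% to 33.1% of probe sets lower on those arrays. Without a measure of detection such levels cannot be separated from background, so the span may be a lower bound.

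By label, RSPO3 averaged 5.56 ± 2.25 (SD, n = 3) over the mandibular arrays. Over the tibial arrays it averaged 6.61 ± 2.24 (SD, n = 3). The difference, mandibular minus tibial, was -1.06 (standard error, SE, 1.42, from limma), smaller than the SD of either site. It depended on single arrays: it was -2.35 without mandibular 2, -2.35 without tibial 3, -0.32 without mandibular 1, -0.50 without mandibular 3, -0.47 without tibial 1 and -0.35 without tibial 2. Without both mandibular 2 and tibial 3 it was -3.64.

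WIF1 was higher on every mandibular array than on any tibial array. It measured 8.48, 7.05 and 7.26 on mandibular 1, 2 and 3, and 5.48, 5.91 and 6.88 on tibial 1, 2 and 3. The values did not overlap, but the margin between mandibular 2 and tibial 3 was 0.18 log2 units, far less than the 1.43 between mandibular 1 and 2 or the 1.40 between tibial 1 and 3. Mandibular 2 and tibial 3, which lay at opposite ends for RSPO3, were neighbours in the middle for WIF1. Of all probe sets, 3.35% had all mandibular values above all tibial values, and 3.57% the reverse; since the sites' difference was known when WIF1 was picked, nothing is read from its place among them.

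The mandibular mean of WIF1 was 7.60 ± 0.77 (SD, n = 3) and its tibial mean was 6.09 ± 0.72 (SD, n = 3). The difference was 1.51 (SE 0.48), or 2.84-fold, larger than the SD of either site. With single arrays left out it lay between 1.07 (without mandibular 1) and 1.90 (without tibial 3), and without both mandibular 2 and tibial 3 it was 2.17.

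LEF1 differed from the rest on a single array. It measured 7.41, 7.44 and 7.13 on mandibular 1, 2 and 3, and 7.45, 8.50 and 7.34 on tibial 1, 2 and 3. Tibial 2 was 1.05 log2 units above the next array, while the other 5 arrays, of both sites, lay within 0.32 of each other. The sites overlapped. The mandibular mean was 7.33 ± 0.17 (SD, n = 3) and the tibial mean 7.76 ± 0.64 (SD, n = 3). They differed by -0.44 (SE 0.31), or 1.35-fold, smaller than the tibial SD. Without tibial 2 it was -0.07.

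**Figure D1:**
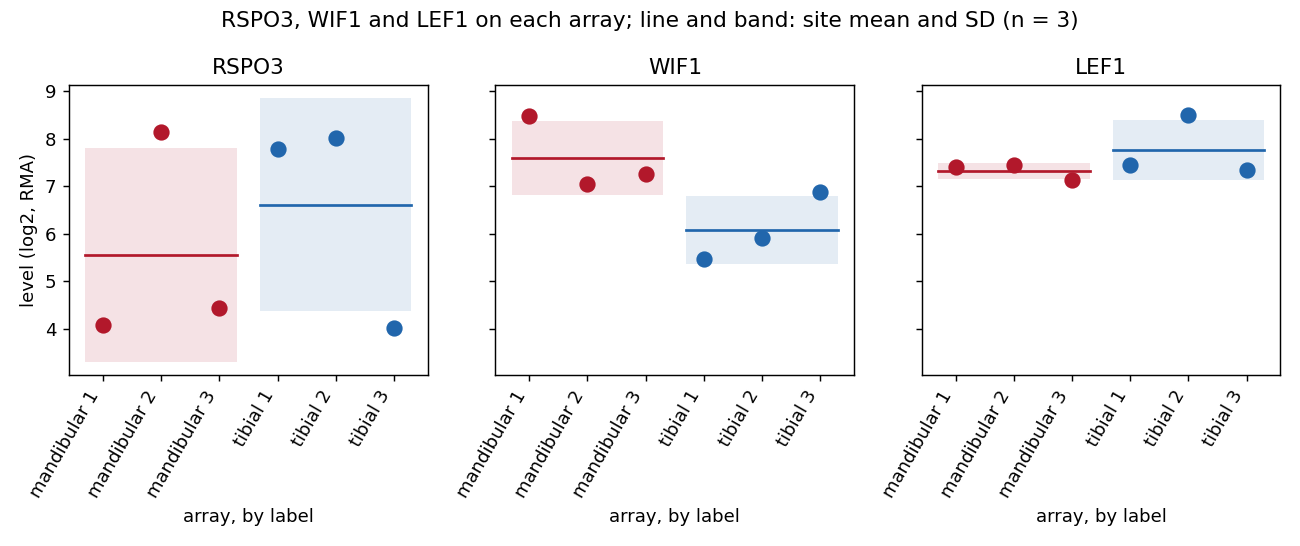
Level (log2, RMA) of RSPO3, WIF1 and LEF1 on each of the 6 arrays, with the site mean as a line and its SD as a band (n = 3). RSPO3 lies near 4 or near 8 in both sites, WIF1 has every mandibular point above every tibial one, and LEF1 has 1 high point, tibial 2 at 8.50.

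The arrays left out show how each difference rests on the labels. No omission changed the sign of any of the 3 differences. The RSPO3 difference ran from -3.64 to -0.32, that of WIF1 from 1.07 to 2.17 and that of LEF1 from -0.71 to -0.07 over the single omissions and the omission of mandibular 2 and tibial 3 together. That joint omission was chosen because those arrays go against their labels in these same data, so it gives no independent support.

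**Figure D2:**
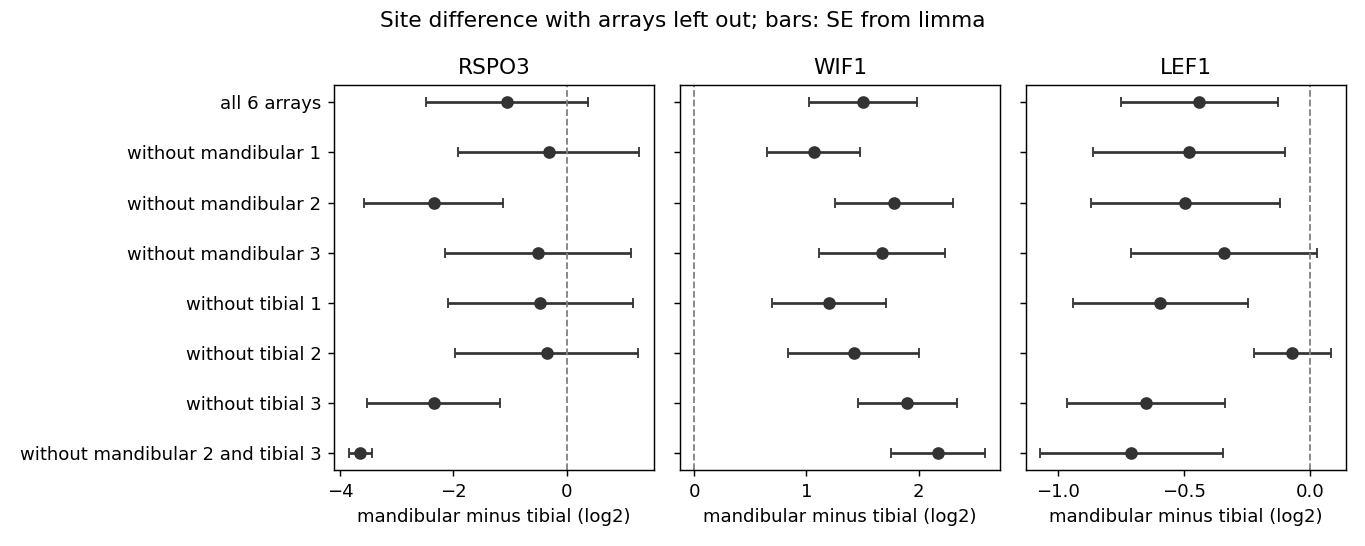
Difference between the sites (mandibular minus tibial, log2) for each gene with all 6 arrays, with each array left out and with mandibular 2 and tibial 3 left out; bars are SE from limma and the dashed line is 0. RSPO3 moves from -0.32 to -3.64 with the arrays used, WIF1 stays at or above 1.07, and LEF1 shrinks to -0.07 without tibial 2.

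Genes that act with RSPO3 were examined next. RSPO2, a second R-spondin, ran opposite to RSPO3: it measured 5.44, 3.36 and 5.41 on mandibular 1, 2 and 3, and 3.47, 3.55 and 6.41 on tibial 1, 2 and 3. The 3 arrays with high RSPO3 were the 3 with low RSPO2, all below the lower quartile of their array, so its low levels, like those of RSPO3, cannot be separated from background. The RSPO2 difference between sites was 0.26 (SE 0.93). It turned to -0.09 without mandibular 1, -0.08 without mandibular 3, -0.25 without tibial 1 and -0.21 without tibial 2, and was 0.94 without mandibular 2, 1.23 without tibial 3 and 1.91 without both. RSPO4 ranged only from 4.85 to 5.43.

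Of the R-spondin receptors, LGR4 measured 7.68, 8.39 and 8.11 in mandibular and 7.99, 8.84 and 8.25 in tibial cultures, highest on tibial 2, the array with the highest LEF1. LGR6 ranged from 5.28 to 5.75. The ubiquitin ligase genes varied little: ZNRF3 ranged from 6.70 to 6.97 and RNF43 from 4.69 to 5.39. No probe set with the single symbol RSPO1 or LGR5 was found, and those genes are not analysed here. Of the 6 other measured genes of this group, 0 passed the test between the sites, 3 had higher mandibular and 3 higher tibial means.

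Among the secreted inhibitors, the group to which WIF1 belongs, DKK2 followed RSPO3. DKK2, whose protein binds the LRP co-receptors, measured 5.29, 9.80 and 5.40 on mandibular 1, 2 and 3, and 8.92, 7.91 and 5.45 on tibial 1, 2 and 3. Its 3 high arrays were those of RSPO3. Its difference of -0.60 (SE 1.40) turned to 0.17 without mandibular 1, 0.12 without mandibular 3 and 0.15 without tibial 1, and was -2.08 without mandibular 2, -0.36 without tibial 2, -1.58 without tibial 3 and -3.07 without both mandibular 2 and tibial 3.

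SFRP1 and FRZB encode secreted decoys that, like WIF1, bind WNT proteins, in their case through a domain related to that of Frizzled. SFRP1 measured 7.00, 6.43 and 8.28 in mandibular and 5.28, 5.28 and 8.06 in tibial cultures, a difference of 1.03 (SE 0.84). Tibial 1 and 2 were low for SFRP1 as they were for WIF1, but tibial 3 was the second highest. FRZB measured 5.73, 7.90 and 6.40 in mandibular and 5.72, 4.06 and 6.83 in tibial cultures, with its extremes on mandibular 2 and tibial 2 and a difference of 1.14 (SE 0.80). The SFRP1 difference was 0.51 without mandibular 3, 0.57 without tibial 1, 0.57 without tibial 2, 1.96 without tibial 3 and 2.36 without both mandibular 2 and tibial 3. The FRZB difference was 0.53 without mandibular 2, 0.40 without tibial 2 and 1.79 without tibial 3.

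The other inhibitors moved less. SFRP2 ranged from 11.94 on mandibular 2 to 13.40 on mandibular 1, with a difference of -0.32 (SE 0.35) that was 0.05 without mandibular 2, -0.68 without mandibular 1 and 0.10 without both mandibular 2 and tibial 3. DKK3 ranged from 9.34 to 10.13, SOST, the osteocyte inhibitor, from 5.42 to 6.09, and DKK1 from 3.23 to 3.65, below the lower quartile on all arrays. Of the 10 measured inhibitors other than WIF1, 0 passed the test, 5 had higher mandibular and 5 higher tibial means, and 4 spanned 1 log2 unit or more. The 10 include KREMEN1, whose protein sits in the membrane and is not secreted. SFRP4 had no probe set with a single symbol and is not analysed here.

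None of the other measured TCF/LEF factors stood apart on tibial 2 as LEF1 did. TCF7, a factor of the same family, measured 9.06, 9.04 and 9.29 in mandibular and 8.29, 9.19 and 9.13 in tibial cultures, with tibial 1 low. TCF7L1 ranged from 7.00 to 7.90 and TCF7L2 from 8.16 to 8.66. CTNNB1, the gene of β-catenin, ranged from 10.41 to 10.88. BCL9, a β-catenin co-factor, was highest on mandibular 2 at 9.43 and lay between 8.24 and 8.64 elsewhere. Of the 9 measured nuclear genes other than LEF1, 0 passed the test, and 2 spanned 1 log2 unit or more.

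Feedback and target genes of the pathway showed no common direction. AXIN2, a direct feedback target, lay between 3.19 and 4.01, close to the lower quartiles of the arrays. CCND1, the gene of cyclin D1, measured 10.46, 10.27 and 11.10 in mandibular and 8.90, 8.38 and 11.00 in tibial cultures, a difference of 1.18 (SE 0.66) that was 0.66 without tibial 2, 1.97 without tibial 3 and 2.14 without both mandibular 2 and tibial 3. CD44, a hyaluronan receptor gene, differed by 0.52 (SE 0.44) and TNFRSF11B, the gene of osteoprotegerin, by 0.41 (SE 0.27). With single arrays left out they ran from 0.15 (without tibial 1) to 0.99 (without tibial 3) and from 0.22 (without mandibular 3) to 0.66 (without tibial 3), and without both mandibular 2 and tibial 3 they were 1.15 and 0.68. All 9 measured cell cycle genes had higher mandibular means, and the mean of that list was lowest on tibial 1 and 2, at 6.10 and 6.61, as CCND1 was; its part in the CCND1 values was not tested. Of 11 measured genes of this group other than LEF1, 5 had higher mandibular and 6 higher tibial means, and 0 passed. NKD1 and SP5 had no probe set with a single symbol and are not analysed here.

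Ligands and receptors of the pathway varied less than RSPO3. WNT5B, a ligand of the non-canonical branch, was highest on mandibular 2 at 9.21 and tibial 2 at 8.64 and lay between 7.62 and 7.93 elsewhere. WNT2B ranged from 7.35 to 8.76 and WNT16 from 4.98 to 6.07. The receptor gene FZD3 measured 5.78, 5.33 and 5.35 in mandibular and 4.15, 4.89 and 5.07 in tibial cultures. Its difference was 0.78 (SE 0.26; 0.51 without tibial 1), and limma gave an unadjusted p of 0.0223 and an adjusted p of 0.9995. FZD4 ranged from 6.07 to 7.22 and ROR1 from 7.88 to 8.95, and both overlapped between the sites. Of 13 measured ligands 0 passed the test, and of 12 measured receptors 0 passed; the ligand secretion factor WLS ranged from 10.23 to 10.93 and did not pass.

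**Figure D3:**
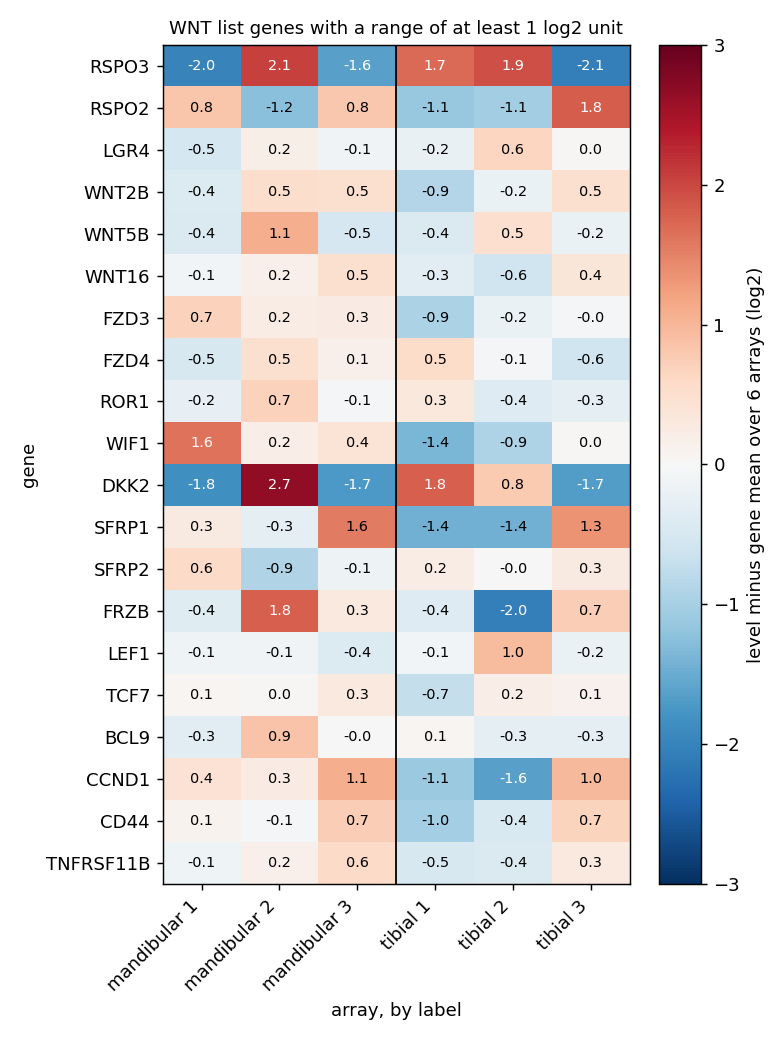
Level of each WNT list gene that spanned 1 log2 unit or more, minus its mean over the 6 arrays (log2, colour and printed value), for the 3 genes and 17 others. RSPO3 and DKK2 are high on mandibular 2, tibial 1 and tibial 2, RSPO2 is low on those arrays, and LEF1 stands out on tibial 2 alone.

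Across all 65 measured WNT genes other than the trio, 0 passed the test between sites (limma, 0% of all probe sets called) and 1, FZD3, had an unadjusted p under 0.05, where 3.03% of all probe sets did. The median difference of the 65 was 0.05 against 0.005 over all named genes, with 36 higher in mandibular and 29 in tibial cultures. All 3 values of a site lay above all 3 of the other for 3 of the 65, FZD3, WNT7A and RYK, each with higher mandibular levels. That is 4.62% of the 65, where 6.42% of all named genes had such values in either direction. Levels spanned 1 log2 unit or more for 17 of the 65, 26.2%, against 14.8% of all named genes. Without mandibular 2 and tibial 3, 2 of the 65 were called, RSPO2 and DKK2, where 0.708% of all probe sets, named or not, were. Those arrays were left out because they go against their labels in these same data. Both genes part the arrays as RSPO3 does, DKK2 in the same direction and RSPO2 in the opposite one. Their calls thus follow from that choice and give no independent support.

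**Figure D4:**
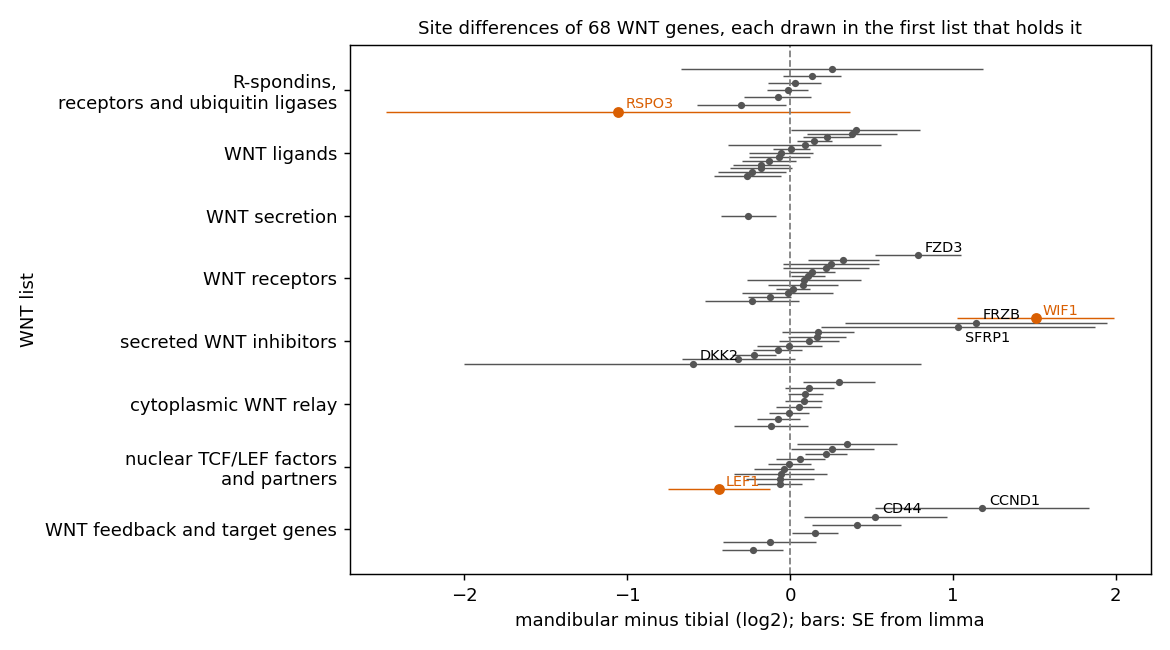
Difference between the sites (mandibular minus tibial, log2, bars SE from limma) for the 68 measured WNT genes, by role; the trio is in orange. WIF1 lies farthest to the mandibular side at 1.51 and RSPO3 farthest to the tibial side at -1.06, with an SE of 1.42. The trio was picked with these differences known, so nothing is read from these places.

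The order of arrays seen for RSPO3 was common among genes that varied widely. Of 1637 named genes with a range of 1 or more, 459 (28.0%) had the same 3 arrays highest and 310 (18.9%) had them lowest. Of the 17 WNT genes with such a range, DKK2 alone had the same 3 highest (5.88%), and RSPO2, SFRP1, CCND1 and CD44 had them lowest (23.5%).

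Likeness between whole profiles was measured as the root mean square (RMS) difference between log2 levels over the 6 arrays, after each gene was centred on its own mean. The 5 genes nearest to RSPO3 were TFPI2, a protease inhibitor gene (RMS 0.37), SMOC1, a matrix protein gene (0.47), LGALS9, a galectin gene (0.56), DKK2 (0.56) and LIMCH1 (0.59), where the median over all named genes was 1.92. Each had its 3 highest values on mandibular 2, tibial 1 and tibial 2. The nearest mirror images of RSPO3 were ALX1, a homeobox factor of facial mesenchyme (RMS 0.20), LHX8 (0.31) and ADAM23 (0.67). ALX1 measured 8.08, 3.86 and 7.44 in mandibular and 3.90, 3.54 and 7.97 in tibial cultures. Its 3 low values, and that of LHX8 on mandibular 2, lay below the lower quartile of their array, where levels cannot be separated from background.

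WIF1 had other neighbours. The nearest were NOG, the gene of the BMP inhibitor noggin (RMS 0.34), BGLAP, the gene of the bone protein osteocalcin (0.39), TRPA1, a cation channel gene (0.40), AKR1CL1 (0.40) and ITGA10, a collagen-binding integrin gene (0.41), against a median of 0.97. NOG measured 9.07, 7.82 and 8.83 in mandibular and 6.77, 7.29 and 8.05 in tibial cultures. Its lowest mandibular value lay below tibial 3, so its sites overlapped where those of WIF1 did not. The nearest mirror images were TLR7, an RNA-sensing receptor of immune cells (RMS 0.34), INPP5D, a phosphatase gene of blood cells (0.39), and KYNU (0.40). TLR7 measured 4.59, 5.74 and 5.09 in mandibular and 7.30, 6.81 and 5.16 in tibial cultures. BGLAP lay below the lower quartile on mandibular 2, tibial 1 and tibial 2, and KYNU on every array but tibial 1 and 2, so those levels cannot be separated from background.

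Most macrophage and monocyte genes were high where WIF1 was low, and most also followed the arrays of RSPO3 and DKK2. Of 13 measured macrophage and monocyte markers (of 16 listed), 12 had lower mandibular means, and none was below the lower quartile on all arrays. The exception was CD86, the highest gene of the list, which ran the other way. It was lowest, 7.44 to 8.44, on the 3 arrays with high RSPO3, and measured 9.64 to 9.87 elsewhere. The mean of the list ranged from 5.44 to 6.66 in mandibular and from 6.05 to 8.95 in tibial cultures, highest on tibial 1 and 2, the arrays with the lowest WIF1. The next highest mean, 6.66, was on mandibular 2, so the 3 highest arrays for these markers were the 3 with high RSPO3 and DKK2. Its part in the levels of WIF1, RSPO3 and DKK2 was not tested, and in such bulk RNA fewer cells of a type and less RNA per cell cannot be told apart. On tibial 3 the list mean was 6.05, below the 6.66 of mandibular 2, while WIF1 was 6.88 and 7.05 on them.

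Genes nearest to LEF1 shared its single high array. They were BBS9, a gene of the ciliary BBSome (RMS 0.07), CTTNBP2 (0.10), ADGRL4 (0.12), CHL1 (0.14) and TMEM40 (0.15), against a median of 0.48, and each had its highest value on tibial 2. BBS9 measured 6.59, 6.52 and 6.43 in mandibular and 6.63, 7.75 and 6.56 in tibial cultures. ADGRL4 and CHL1 were below the lower quartile of every array, where levels cannot be separated from background. The nearest mirror images, CDH13 (RMS 0.08), FAM160A1 (0.10) and CD247 (0.13), were lowest on tibial 2.

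**Figure D5:**
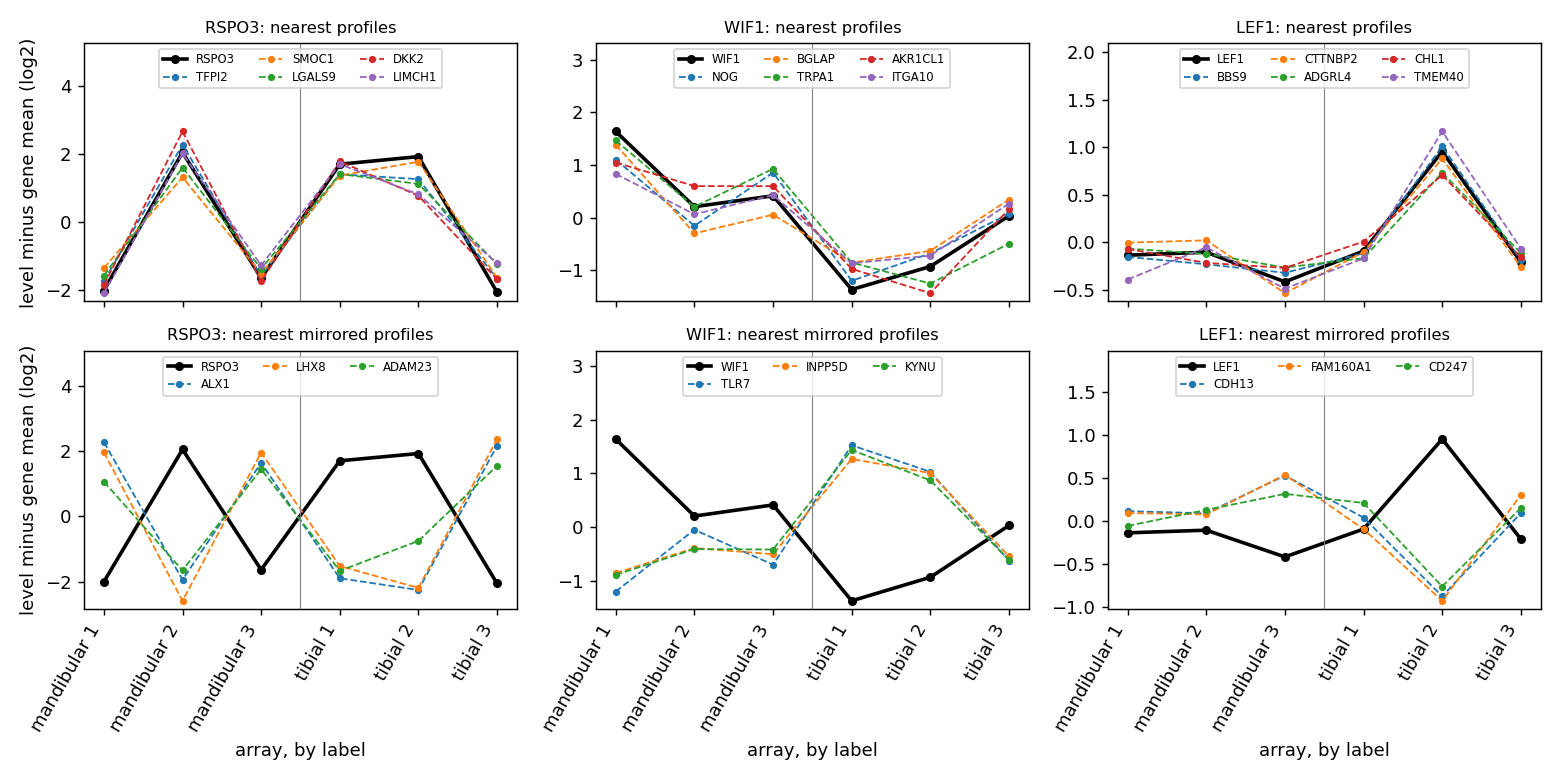
Centred log2 levels over the 6 arrays of each gene (black) with its 5 nearest profiles (upper row) and its 3 nearest mirrored profiles (lower row); lines join the points of a gene and do not mark an order. The RSPO3 panels show arrays high or low together, the WIF1 panels a graded order, and the LEF1 panels a single array, tibial 2, apart from the rest.

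LEF1 is also known from lymphocytes and RSPO3 from endothelium, and markers of both were checked. Of 13 measured lymphocyte markers (of 16 listed), the list mean ranged from 4.45 to 4.53 in mandibular and from 4.50 to 4.73 in tibial cultures. It was 4.73 on tibial 1 and 4.66 on tibial 2, and its part in the LEF1 level was not tested. EBF1, a factor of B cells that stromal cells also express, was the highest of these markers and measured 8.35 to 9.84. The list mean leaned on EBF1 and CD4, the only 2 of the 13 that spanned 1 log2 unit or more. Both were highest on tibial 1 and 2, where CD4 measured 5.27 and 4.96, against 3.66 to 4.00 elsewhere. Of 8 measured endothelial markers (of 12 listed), the list mean ranged from 4.93 to 4.97 in mandibular and from 4.91 to 5.28 in tibial cultures. The 3 arrays with high RSPO3 had the 3 highest means, 5.28 on tibial 1, 5.09 on tibial 2 and 4.97 on mandibular 2, and the other 3 lay between 4.91 and 4.94. No single marker of the 8 had these 3 arrays highest, and VWF was lowest on mandibular 2. Of the 8, 4 had higher mandibular means. The part of these markers in the RSPO3 level was not tested.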

How the data were processed

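RNA of 6 cultures was measured on Affymetrix porcine arrays. RMA, the Affymetrix Expression Console and version 3.0 of the Transcriptome Analysis Console are the tools in the submitters' processing notes, and each deposited value is a log2 level of 1 of 27558 probe sets. Settings and genome build: not given in the sources used here. The number of arrays limits precision.

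Names came from GEO's platform annotation, in which 13157 probe sets have 1 symbol, 523 have several and 13878 have none; 7 symbols were updated through Entrez numbers. Without placeholder symbols, 11911 probe sets covered 11078 genes; each gene was read from its probe set of highest mean level.

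Sites were compared with limma 3.58.1 in R 4.3.3 (lmFit, eBayes), two-sided; p-values were adjusted by Benjamini-Hochberg across all probe sets, with a threshold of 0.05. The fit was run on simulated data to check that it returned planted differences. That simulation drew each probe set independently, so it does not bear on arrays that go against their labels. Members and gene lists (8 of WNT genes, the others of markers) were chosen with earlier results of these data known. Genes named were the trio, a set of core pathway genes, up to 4 further genes per WNT list by range, if at least 1 log2 unit, and the 5 nearest and 3 mirrored profiles per member. Genes outside this rule (WNT7A, RYK, WLS, KREMEN1, CHAD, COL2A1, PHEX, IBSP, SP7, MCAM, VCAM1, NT5E, CD4 and VWF) were named after their values were seen. EBF1 and CD86 were named as the highest genes of their marker lists. HOXA7 and LHX8 came from earlier results of these data. Alternatives were single and joint omissions of arrays, a replicate block, median centring, array weights, a filter on low values, and trend with robust fitting. No genome or sequence table was used.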

Additional observations from a re-analysis of the deposited data

How the results depend on the processing

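The joint omission of mandibular 2 and tibial 3 moved the RSPO3 difference to -3.64, raised the probe sets called from 0 to 195 and the WNT genes called from 0 to 2; the cause was not tested. With single arrays left out, the difference ranged from -2.35 to -0.32 for RSPO3, from 1.07 to 1.90 for WIF1 and from -0.65 to -0.07 for LEF1, and the WNT median from 0.03 (without tibial 1) to 0.08. Probe sets called ranged from 0 to 2 (2 without tibial 3, 1 without tibial 1), and WNT genes called stayed at 0. Whether the replicate numbers pair the samples was not settled. Deviations of same-numbered arrays correlated at -0.03, 0.21 and 0.47, and those of differently numbered arrays at -0.49 to 0.36. With 3 arrays a site, and mandibular 2 and tibial 3 against their labels, these values cannot decide it. With the number as a replicate block, differences were the same by construction (-1.06, 1.51 and -0.44) and 0 probe sets were called. The SE was then 0.88, 0.52 and 0.23, against 1.42, 0.48 and 0.31 without the block. Median centring gave -1.03, 1.53 and -0.41, and array weights gave -1.23, 1.36 and -0.62. The filter on low values, array weights, centring, and trend with robust fitting each left 0 probe sets called. Each of the trio has 1 probe set, so averaging several could not be run. Low levels of RSPO3 and RSPO2 may be limited by background.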

Other observations

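Among bone and cartilage genes, CHAD, a cartilage matrix gene, measured 8.76, 8.67 and 8.55 in mandibular and 6.52, 7.49 and 8.27 in tibial cultures, with no overlap. COL2A1, a cartilage collagen gene, measured 6.58, 6.56 and 6.49 against 6.94, 6.72 and 6.62, and PHEX, a gene of phosphate handling in bone, 2.89, 2.84 and 2.98 against 3.89, 3.08 and 3.23, both without overlap, PHEX at levels that cannot be separated from background. None passed the adjusted threshold in limma, which called 0 probe sets (836 at an unadjusted p under 0.05). These genes were picked for not overlapping, from 8 osteoblast and 11 chondrocyte markers measured, and all the others overlapped. Of all named genes, 6.42% had no overlap in either direction. CHAD was higher in mandibular cultures, COL2A1 and PHEX in tibial cultures. BGLAP, the gene of osteocalcin, measured 5.51, 3.83 and 4.18 in mandibular and 3.27, 3.49 and 4.47 in tibial cultures, while IBSP, the gene of bone sialoprotein, measured 5.77, 8.49 and 7.22 against 7.07, 9.42 and 7.20. IBSP was highest on tibial 2, the array with the highest LEF1, and lowest on mandibular 1, the array with the highest WIF1. Its next lowest value was on tibial 1, the array with the lowest WIF1, so it did not run opposite to WIF1 throughout. SP7, an osteoblast transcription factor, was 8.79 on mandibular 1 and 8.65 on tibial 2 and lowest on tibial 1 at 7.12. The mean of 8 measured osteoblast markers ranged from 6.56 to 6.76 in mandibular and from 6.63 to 7.00 in tibial cultures, and that of 11 chondrocyte markers from 5.42 to 5.64 and from 5.20 to 5.43.

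The mean of the 9 measured stromal markers ranged from 9.43 to 9.69 in mandibular and from 9.64 to 10.29 in tibial cultures. It leaned on VCAM1, which spanned 5.85 log2 units and was highest on tibial 1, as the mean was. The next widest marker, NT5E, spanned 2.08, and 2 of the 9 had higher mandibular means. The mean of 7 smooth muscle and pericyte markers ranged from 9.21 to 9.74 in mandibular and from 9.11 to 9.53 in tibial cultures, and was highest on mandibular 2. Its member MCAM, a pericyte surface protein, measured 8.55 on mandibular 2 and 7.71 on tibial 1 and between 6.28 and 6.68 elsewhere. The mean of 6 epithelial markers ranged from 4.88 to 5.24 and from 5.08 to 5.33. The mean of 9 cell cycle genes ranged from 7.53 to 8.42 and from 6.10 to 8.03.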
